A study of Arabidopsis thaliana with 6 samples.

Results

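Ribosomal proteins of the cytosol were followed as 33 genes of *Arabidopsis thaliana*, given as a list of identifiers, in the stem transcriptomes of wild-type and *hdt1* plants. The list follows the gene family and no threshold on the values. It holds 24 genes of the large subunit and 9 of the small subunit, encodes 20 distinct proteins, and is a part of the gene family only. All 33 were among the 33690 features of the expression table and among the 17906 genes with at least 1 FPKM (fragments scaled by gene length and by the mapped fragments of the library) in at least 3 libraries. The study asked which transcripts differ in the stem when HDT1, a histone deacetylase of the plant-specific HD2 family, is mutated. RNA came from mature stems of 3 untreated wild-type samples (Columbia) and 3 untreated *hdt1* samples taken 35 days after flowering, and both genotypes were grown in a greenhouse at 20 °C with 16 h of light and 8 h of dark according to the labels. The paper collected T3-stage stems without flowers and leaves and gives another temperature and day length. It had a pair of T-DNA insertion lines, and which of them was sequenced is not stated in the sources used here. Libraries carry the numbers 1, 2 and 4 in both genotypes of the table. The series text says that no replicates were included and the paper speaks of triplicates, and nothing says whether the samples were separate batches of plants. The p-values therefore cover only the spread seen among these samples, which may be technical.

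The eukaryotic cytosolic ribosome joins a small subunit, which decodes the messenger RNA, to a large subunit, which forms the peptide bonds. Its proteins are made in the cytosol, imported into the nucleolus and assembled there with ribosomal RNA. In Arabidopsis nearly every ribosomal protein is encoded by several paralogous genes that are expressed at different levels, and mutants in single paralogues have pointed leaves, altered leaf polarity or embryo lethality. Transcripts of these genes are abundant in dividing and growing tissue and scarcer in tissue that has stopped growing.

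The libraries held 40505052 to 45230842 mapped fragments each, as solved from the step between the deposited values. The members were counted with 224 to 26769 fragments per library (PGY1 left out, since its scale was uncertain). The lowest counts, 224 to 430, were those of RPL10B, where counting error weighs most. Counting error was not set against the spread between libraries for each member. HDT1 itself, the mutated gene, was at 53.3, 65.3 and 56.9 FPKM across the wild type (libraries 1, 2 and 4) and at 4.97, 19.8 and 20.5 across *hdt1*. The groups did not overlap (exact permutation test, two-sided, p = 0.1, the smallest that 3 against 3 allows), and *hdt1* reached 25.7% of the wild-type mean. Library 1 stood apart from libraries 2 and 4 in both genotypes: Pearson's r across genes was 0.995 between libraries 2 and 4 of each genotype, 0.977 between both library 1 samples, and 0.853 to 0.906 for the other pairs. No label names this split, so many differences are also shown for library 1 by itself and for libraries 2 and 4. Libraries 2 and 4 still differed by more than counting noise, with a median chi-square per gene of 2.30 in the wild type and 2.45 in *hdt1* against 0.455 from counting alone, and were kept as separate samples.

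Markers of other tissues moved with genotype and library. Summed over 4 seed genes, wild-type libraries 2 and 4 held 159.6 and 156.6 FPKM, whereas wild-type library 1 was listed at 0 and the *hdt1* libraries at no more than 0.146. The 5 anther and pollen genes summed to 68.5 and 74.6 FPKM there and to 3.05 to 16.8 in the other 4 libraries, with AT5G07230 at 0 throughout. The 9 secondary wall genes of xylem and fibres, which include the cellulose synthases CESA4, CESA7 and CESA8, summed to 32.5 to 82.2 FPKM across the wild type and 189 to 208 in *hdt1*. For 4 phloem genes the sums were 200.1 to 372 and 406 to 464 FPKM, for 5 photosynthesis genes 8796 to 10052 and 6045 to 9134, and for 4 shoot meristem genes 191 to 252 and 162 to 187. The 6 genes of dividing cells were low throughout (5.47 to 9.10 FPKM in sum, and 19.0 in *hdt1* library 1). The 4 epidermal genes summed to 67.6 and 67.3 FPKM in library 1 of the wild type and of *hdt1*, and to 27.4 to 32.0 in libraries 2 and 4. Single epidermal genes differed between the genotypes in opposite directions, which this sum hides. The 4 senescence genes summed to 182 to 372 in the wild type and 328 to 382 in *hdt1*. In these whole stems fewer cells of a type and less RNA per cell cannot be told apart, and the part of these markers in the results on ribosomal proteins was not tested.

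As a group the ribosomal protein transcripts were lower in *hdt1*. Their summed FPKM was 9699, 8453 and 8363 across the wild type (libraries 1, 2 and 4) and 7480, 6715 and 7022 across *hdt1*, so that every *hdt1* sum lay below every wild-type sum. The mean sum in *hdt1* (7072 ± 385, SD, n = 3) was 80.0% of that in the wild type (8839 ± 747, SD, n = 3), and their share of all FPKM was 1.16 to 1.20% in the wild type and 0.921 to 0.964% in *hdt1*. The median log2 difference over the 33 genes, *hdt1* minus wild type, was -0.30, beside -0.08 over all 17906 genes and -0.11 over the 1466 genes with a mean of at least 100 FPKM. Without wild-type library 1 it was -0.18, beside -0.03 over all genes. The estimate was negative for 28 members (84.8%) and for 58.6% of all genes.

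Single members did not pass the test of the whole table. With limma on log2(FPKM + 1) and all 6 libraries, 0 members and 0 of 17906 genes (0%) had an adjusted p under 0.05 in either direction, and the adjusted p of the members ran from 0.287 to 0.979. At an unadjusted p under 0.05, 8 members (24.2%) were lower in *hdt1*, beside 5.96% of all genes and 10.2% of the genes with a mean of at least 100 FPKM, and 0 were higher, beside 7.78% of all genes. That count of 8 was 14 with the library number as a block, where 12.6% of all genes were lower. It was 1 without wild-type library 2 (1.51% of all genes), 3 without wild-type library 4 (1.68%), 3 without *hdt1* library 2 (1.55%) and 2 without *hdt1* library 4 (1.57%). When libraries 2 and 4 were fitted alone it was 23 (69.7%), beside 40.6% of all genes. Counted without a model, 18 members (54.5%) had every *hdt1* library below every wild-type library, beside 10.9% of all genes and 17.3% of those with a mean of at least 100 FPKM, and 0 lay wholly above, beside 8.5% of all genes. A fit with a term that separates library 1 from libraries 2 and 4 called 0 members higher at an adjusted p under 0.05, beside 3.82% of all genes. It called 8 members lower (24.2%), beside 2.52% of all genes and 7.64% of those with a mean of at least 100 FPKM. Among those 8 were RPL3A, RPL5B, AT3G07110, AT5G27850, RPS6B and RPS18C, and all 8 had adjusted p-values between 0.0350 and 0.0485. After scaling each library by its median ratio, 4 of the 8 kept the call, among them AT3G07110, AT5G27850 and RPS18C.

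**Figure D1:**
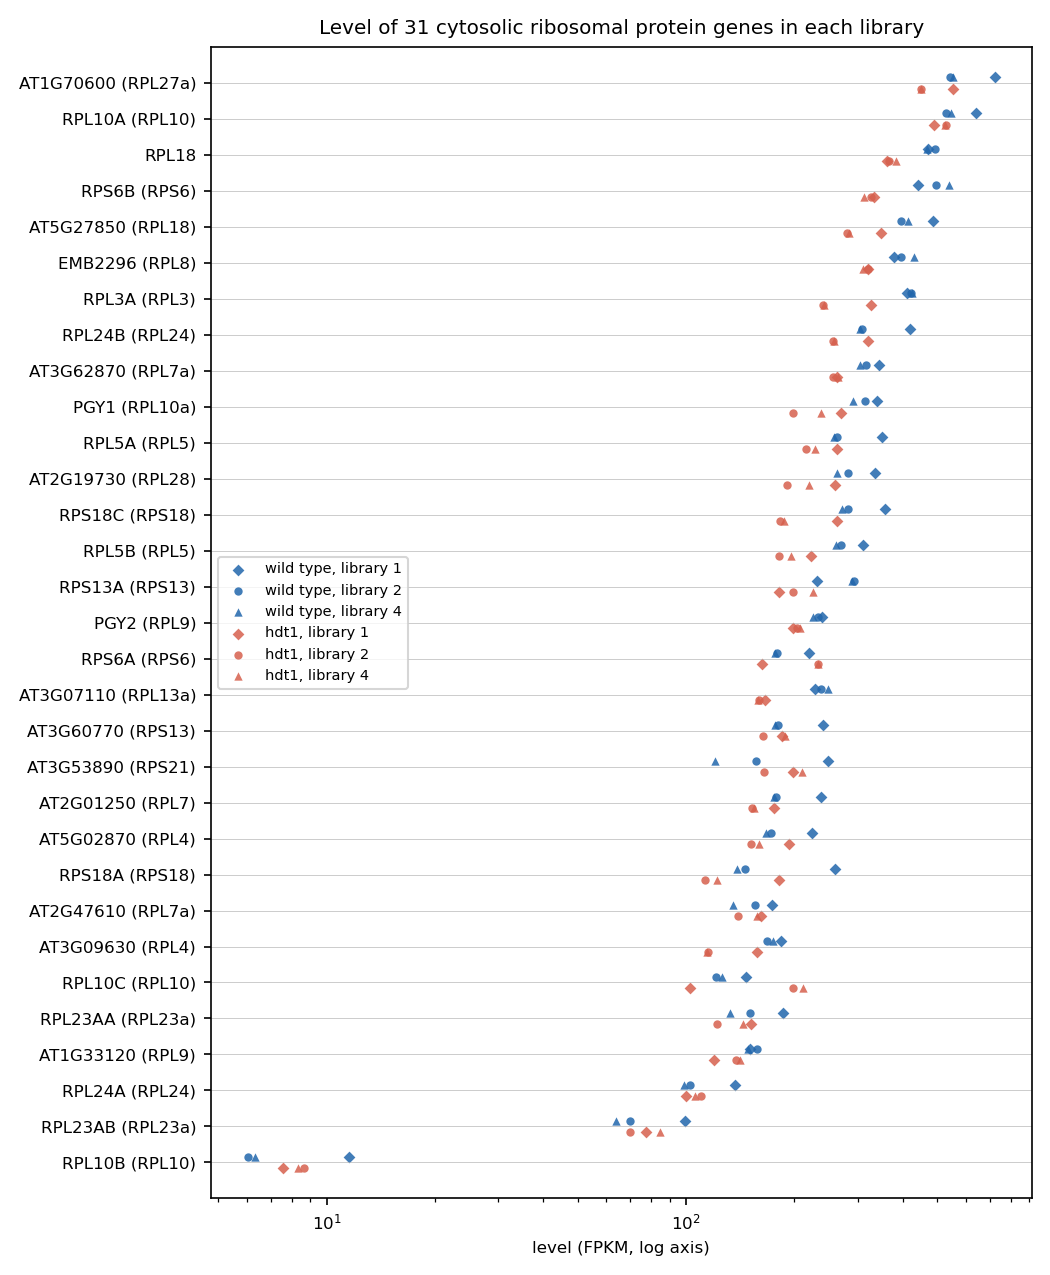
Level of 31 of the 33 members in FPKM (log axis) in the 3 wild-type (blue) and 3 *hdt1* (red) libraries, ordered by mean level, with the protein in brackets. In 16 of these members all red points lie left of all blue points, and RPL10B stands alone below 12 FPKM.

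The members were among the most abundant transcripts of the stem. AT1G70600 of chromosome 1, which encodes a large subunit protein of the L18e/L15 superfamily (RPL27a), had the highest mean, with 722, 544 and 551 FPKM across the wild type (libraries 1, 2 and 4) and 554, 449 and 449 in *hdt1*. Its groups overlapped, since *hdt1* library 1 was slightly above wild-type libraries 2 and 4, and *hdt1* was at 79.9% of the wild type (log2 difference -0.32 ± 0.21, SE; limma adjusted p = 0.528). RPL10B was the lowest, with 11.5, 6.05 and 6.31 FPKM across the wild type and 7.59, 8.63 and 8.35 in *hdt1*, which rest on 224 to 430 fragments per library. Without it, the means of the members over all libraries spanned the 89.0th to the 99.3rd percentile of the genes kept.

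Of the 10 members with the smallest p, 5 belong to the large subunit. AT3G07110, an L13-family gene (RPL13a), was at 229, 237 and 248 FPKM across the wild type (libraries 1, 2 and 4) and at 165, 159.9 and 159 in *hdt1*. In TAIR10.1 it spans chr3:2251946-2253597 on the plus strand, with 4 exons. Its *hdt1* libraries lay close together and well below the wild type, at 67.9% of its mean (log2 difference -0.55 ± 0.15, SE; limma adjusted p = 0.287 with all libraries and 0.0350 with the term for library 1). RPL3A encodes RPL3, a protein that reaches into the peptidyl transferase centre, and was at 411, 422 and 426 FPKM across the wild type and 326, 241 and 242 in *hdt1*. The gene spans chr1:16266553-16268945 (plus strand, 6 exons). Its wild-type libraries differed little, whereas *hdt1* library 1 stood between the other *hdt1* libraries and the wild type (log2 difference -0.65 ± 0.19; adjusted p = 0.294 and 0.0485). This was the largest difference among the members, with -0.33 within library 1 and -0.81 within libraries 2 and 4.

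RPL5 binds the 5S ribosomal RNA and carries it into the large subunit. Its gene RPL5B, which influences organ size, was at 309.7, 269.8 and 262 FPKM across the wild type and at 223, 182 and 195 in *hdt1*, with no overlap (log2 difference -0.49 ± 0.17; limma adjusted p = 0.321 and, with the term for library 1, 0.0419). The differences were nearly alike in both sets of libraries, at -0.47 within library 1 and -0.49 within libraries 2 and 4. AT5G27850, an L18e/L15 gene for RPL18, was at 485, 397 and 415 FPKM across the wild type and 348, 279.9 and 285 in *hdt1*, again with every *hdt1* library lower (-0.51 ± 0.19; adjusted p = 0.329 and 0.0394). Genes on the other strand overlap it, AT5G04545 by 156 bp and AT5G27860 by 256 bp, and since the strand setting of the counting is not given, reads of that stretch cannot be told apart. AT3G09630, an L4/L1-family gene for RPL4, was at 183, 168 and 174 FPKM across the wild type and 157, 115 and 115 in *hdt1* (-0.45 ± 0.19; adjusted p = 0.362 and 0.0576).

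Of the small subunit genes, RPS6B encodes RPS6, the protein that S6 kinase phosphorylates downstream of TOR. It was at 441, 497 and 539 FPKM across the wild type (libraries 1, 2 and 4) and at 333, 327 and 312 in *hdt1*, so *hdt1* was at 65.8% of the wild type (log2 difference -0.60 ± 0.17; limma adjusted p = 0.291 and, with the term for library 1, 0.0436).

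RPS18C, an S18 gene, was at 358, 282 and 271 FPKM across the wild type and 262, 182 and 188 in *hdt1* (-0.53 ± 0.22; limma adjusted p = 0.366 and, with the term for library 1, 0.0380). Here *hdt1* library 1 was just below the lowest wild-type library. RPS13A, whose mutant alters early leaf development, was at 231, 293 and 289 FPKM across the wild type and 181, 198 and 225 in *hdt1* (-0.43 ± 0.19; adjusted p = 0.380 and 0.0541). The highest *hdt1* and the lowest wild-type library were 225 and 231 FPKM, so these groups were separate by little.

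Of the remaining members, 8 also had every *hdt1* library below every wild-type library, with log2 differences from -0.43 (PGY1) to -0.19 (PGY2). They were PGY1 (RPL10a) and PGY2 (RPL9), which were found as enhancers of a leaf polarity mutant, with AT1G33120 (RPL9), RPL18, EMB2296 (RPL8, needed in the embryo), AT2G19730 (RPL28), AT3G62870 (RPL7a) and AT2G01250 (RPL7). AT1G33120 and PGY2 lie 10677 bp apart on chromosome 1 with 99.1% identical coding sequences, and 53.4% and 57.1% of the 50-base runs of their transcripts occur in another gene, so the split of reads between them is uncertain. Their summed level was 389, 390.2 and 375 FPKM across the wild type and 317, 341 and 349 in *hdt1*. Without this pair, the median log2 difference over the other 31 members was -0.32. RPL5A, RPL24B, which acts in gynoecium patterning, RPS18A, whose mutant has pointed first leaves, RPL23AA, RPL10A, AT5G02870 (RPL4) and AT3G60770 (RPS13) had estimates from -0.35 (RPS18A) to -0.14 (AT3G60770) and groups that overlapped. RPL24A (-0.08), AT2G47610 of RPL7a (-0.02), RPL23AB (0.02), RPL10B (0.09), RPS6A (0.11), AT3G53890 of RPS21 (0.19) and RPL10C (0.31) completed the list, with SE from 0.17 to 0.31, and the limma adjusted p of these 7 ran from 0.665 to 0.979.

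The median log2 difference was -0.29 over the 24 large subunit genes and -0.43 over the 9 small subunit genes. Every *hdt1* library lay below every wild-type library for 13 of 24 (54.2%) and 5 of 9 genes (55.6%), beside 10.9% of all genes. At an unadjusted p under 0.05 in the limma fit, 5 (20.8%) and 3 (33.3%) were lower, beside 5.96% of all genes. Among genes with a mean of at least 100 FPKM these shares were 17.3% and 10.2%. Summing the listed paralogues of each protein gave 20 levels, of which 19 had a lower mean in *hdt1*. For 13 of the 20, every *hdt1* library lay below every wild-type library. Such sums were not formed over all genes, so these counts have no share to stand beside. The exception by mean was RPS21, represented by AT3G53890 alone, at 248, 156 and 120.3 FPKM across the wild type and 199, 165 and 210.0 in *hdt1*. AT5G27700, another S21e gene outside the list, was at 388, 380 and 351 against 266, 281 and 311. With it the RPS21 mean was lower in *hdt1* too (477 against 548 FPKM), but the summed groups overlapped. For library 4 this sum was the higher one in *hdt1*, at 521 FPKM beside 471 for the wild type. RPL10 was nearly level, since its 3 genes summed to 797, 654 and 676 FPKM across the wild type and 598, 735 and 746 in *hdt1*, which is 97.7% of the wild-type mean.

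Within library 1 all 33 members were lower in *hdt1* than in the wild type, with a median log2 difference of -0.38 beside -0.03 over all genes, of which 54.4% were lower. Over the genes with a mean of at least 100 FPKM this median was -0.12, and 62.5% were lower. Each genotype has 1 sample there, so this comparison has no replicate check. Seed markers were at 0 and 0.146 FPKM in these 2 libraries, and the secondary wall genes were at 82.2 and 208. Within libraries 2 and 4, 26 members were lower and 7 higher, with a median of -0.26 beside -0.11 over all genes, of which 57.7% were lower. The 7 were RPL10C (log2 difference 0.73), AT3G53890 (0.44), RPL10B (0.40), RPS6A (0.38), RPL23AB (0.20), RPL24A (0.10) and AT2G47610 (0.03). When only libraries 2 and 4 were fitted, limma called 21 members lower and, as higher, RPL10C, AT3G53890, RPL10B and RPS6A, but the same fit called 4905 genes higher (27.4%) and 6904 lower (38.6%) of 17906, and libraries 2 and 4 of a genotype are nearly alike. Whether the genotype difference itself differs between library 1 and libraries 2 and 4 was not tested.

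**Figure D2:**
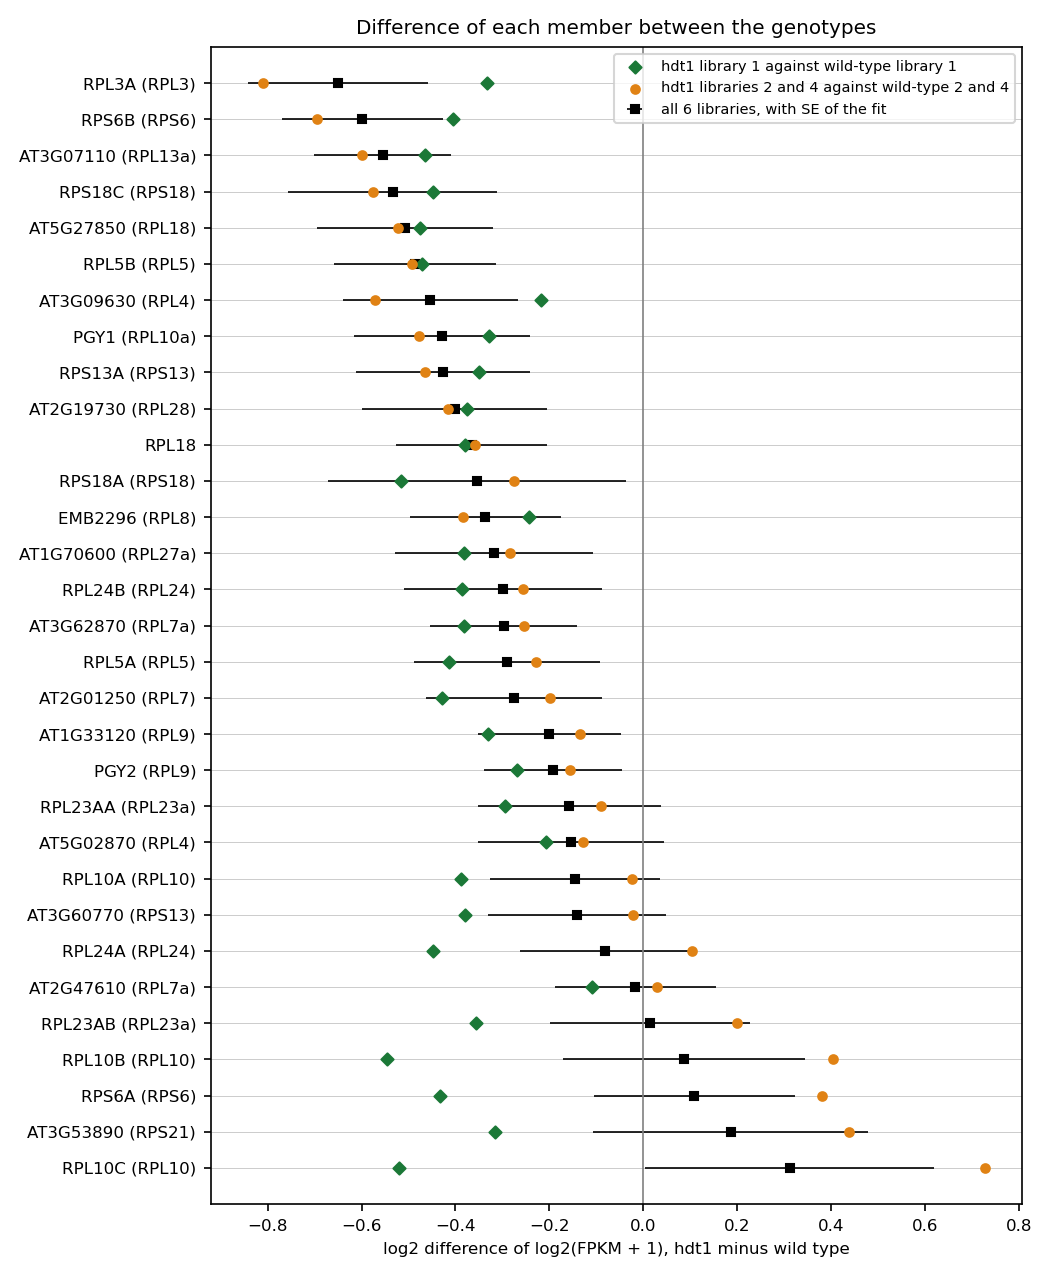
Log2 difference of 31 of the 33 members, *hdt1* minus wild type, on the log2(FPKM + 1) scale, from all 6 libraries (black squares, bars are the SE of the limma fit), within library 1 (green diamonds) and within libraries 2 and 4 (orange circles). All 31 diamonds lie below 0, and 7 of the circles lie above it.

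Part of the spread within a genotype also followed the library number. In the wild type, library 1 was higher than the mean of libraries 2 and 4 for 25 of 33 members, with a median log2 difference of 0.26, and in *hdt1* for 24 members, with a median of 0.10. Over all genes library 1 was the higher in 56.9% and 58.8% of cases, with medians of 0.11 and 0.14. RPS18A differed most in the wild type, with 259 FPKM in library 1 and 146 and 139 in libraries 2 and 4. In *hdt1* it was RPL10C, with 102 FPKM in library 1 and 198 and 212 in libraries 2 and 4.

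The proportions of paralogues of one protein were compared as well. The log2 ratio of the levels was compared between genotypes for the 14 pairs of paralogues by an exact permutation test, two-sided, in which 3 against 3 libraries cannot go below p = 0.1, so no pair could pass 0.05. The smallest adjusted p over the 14 pairs was 0.467. For 3 pairs the groups did not overlap (exact p = 0.1 each). AT2G47610 made up 33.6, 32.9 and 30.7% of the RPL7a pair with AT3G62870 in wild-type libraries 1, 2 and 4 and 37.9, 35.2 and 37.3% in *hdt1* (change of the log2 ratio 0.28). RPL5A made up 53.0, 49.4 and 49.6% of its pair with RPL5B in the wild type and 54.1, 54.2 and 53.9% in *hdt1* (0.20). AT3G09630 made up 45.0, 49.4 and 51.1% of the RPL4 pair with AT5G02870 in the wild type and 44.8, 43.2 and 41.9% in *hdt1* (-0.30), with library 1 nearly equal in the 2 genotypes. AT5G02870 was at 224, 172 and 167 FPKM across the wild type and 194, 151 and 159 in *hdt1*.

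The largest change of a ratio was that of RPS6A to RPS6B, whose mutants are described as fully redundant. The genes lie at chr4:15345979-15347804 and chr5:3258404-3260254, both on the minus strand and with 6 exons, their coding sequences are 85.1% identical, and no 50-base run of either transcript occurs in another gene. RPS6A was at 220.1, 179 and 177 FPKM across the wild type (libraries 1, 2 and 4) and at 163, 232 and 232 in *hdt1*. It made up 33.3, 26.5 and 24.7% of the pair in the wild type and 32.9, 41.5 and 42.7% in *hdt1*. The share was thus nearly the same in library 1 of both genotypes and differed in libraries 2 and 4, where the log2 ratio changed by 1.08 against -0.03 in library 1 (0.71 over all libraries; exact p = 0.2, adjusted p = 0.56). The sum of both genes was 661, 676 and 716 FPKM across the wild type and 495, 559 and 544 in *hdt1*, without overlap.

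RPL10A to RPL10C came next. RPL10A, also known as SAC52, in which mutations suppress the short stem of a thermospermine synthase mutant, was at 639, 527 and 544 FPKM across the wild type and 488, 528 and 526 in *hdt1*. RPL10C, also named senescence-associated gene 24, was at 147, 121 and 126 FPKM across the wild type and 102, 198 and 212 in *hdt1*. RPL10A made up 81.3, 81.4 and 81.3% of this pair in the wild type, 82.7% in *hdt1* library 1 and 72.7 and 71.3% in *hdt1* libraries 2 and 4. Of the 50-base runs of the RPL10A and RPL10C transcripts, 4.60% and 4.81% occur in another gene, so most of their reads could be placed. The wild-type share hardly varied, and *hdt1* library 1 was near it (change of the log2 ratio -0.46; exact p = 0.4, adjusted p = 0.56). Beside this, the 4 senescence genes differed in direction in libraries 2 and 4. SAG13 was at 263, 122 and 125 FPKM across the wild type and 257, 299.3 and 299.4 in *hdt1*, and SAG12 at 80.8, 32.5 and 28.8 against 43.0, 63.3 and 64.8, both higher there in *hdt1*. ORE1 was at 5.65 to 6.36 FPKM across the wild type and 6.54, 2.63 and 2.94 in *hdt1*, and SGR1 at 21.6 to 22.6 against 20.9, 17.1 and 14.6, both lower there. Their part in the RPL10C levels was not tested. The RPS13 genes changed by 0.29, and AT3G60770 made up 51.0, 38.1 and 37.8% of its pair with RPS13A in the wild type and 50.5, 45.2 and 45.7% in *hdt1*. AT3G60770 was at 240, 180 and 176 FPKM across the wild type and 185, 163 and 189 in *hdt1*. For 6 of the 14 pairs, among them AT1G33120 to PGY2, the change was under 0.2 in size, and for 5 pairs it had the same sign in library 1 as in libraries 2 and 4.

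**Figure D3:**
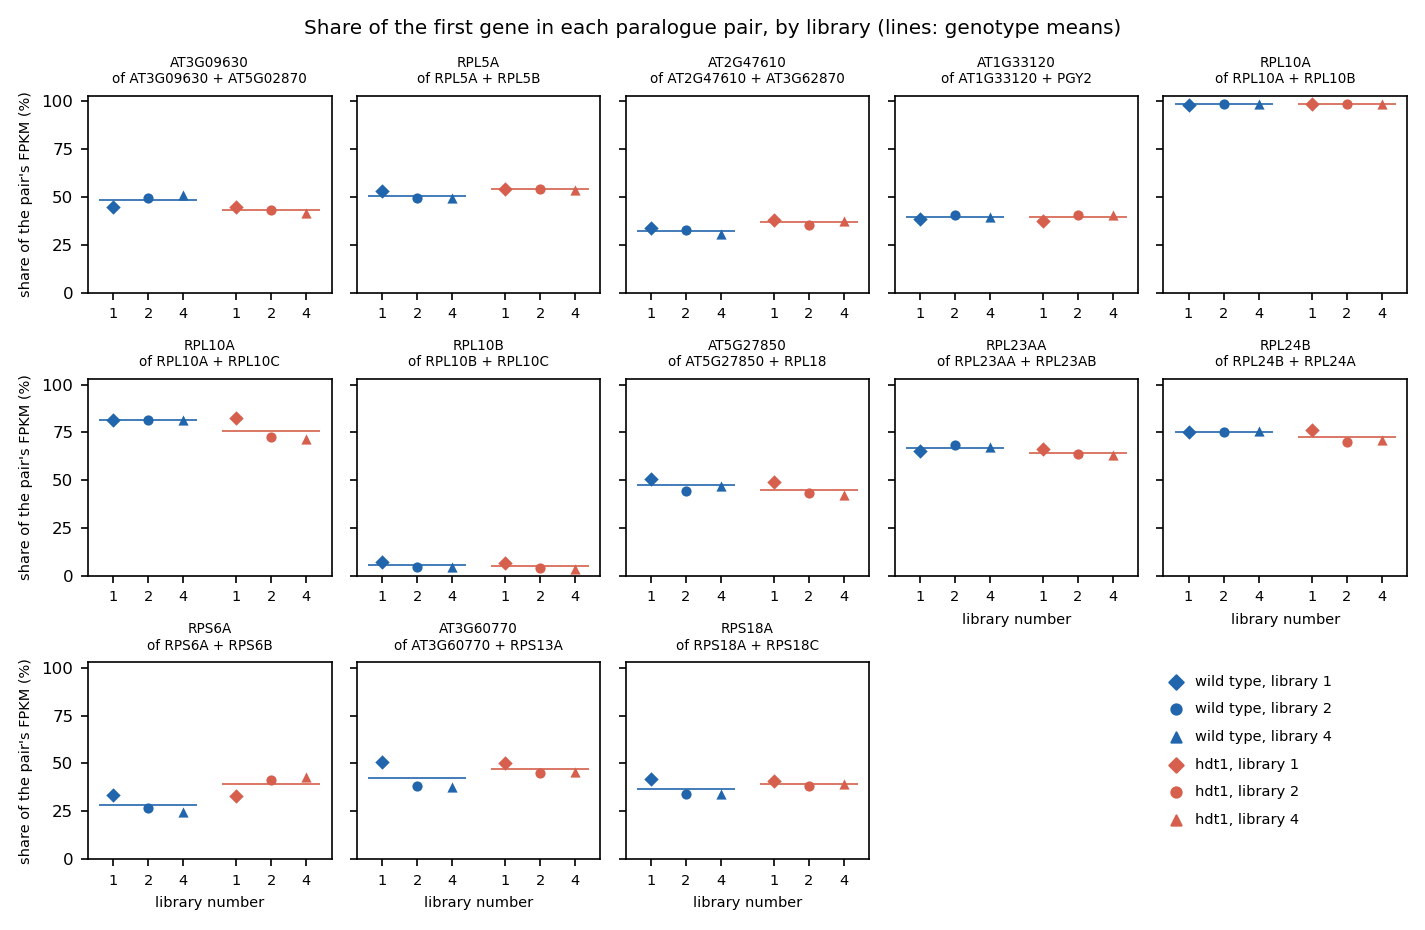
Share of the first-named gene in the summed FPKM of 13 of the 14 paralogue pairs (percent), by library number, in the wild type (blue) and *hdt1* (red), with lines at the genotype means. The share of RPS6A is 32.9 to 33.3% in library 1 of both genotypes and separates in libraries 2 and 4. In the pair with RPL10C, the share of RPL10A is near 81% in the wild type, 82.7% in *hdt1* library 1 and 72.7 and 71.3% in *hdt1* libraries 2 and 4.

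The bases before the annotated starts of the members were searched for known motifs. In plants the promoters of ribosomal protein genes often carry site II elements, which TCP factors bind, and telo-boxes. In the 300 bases before the gene start in TAIR10.1 (RefSeq), site II (TGGGCC or TGGGCT on either strand, overlapping matches counted) was found in 20 of 33 members (60.6%), in 119 of 168 other genes that an annotation search for cytosolic ribosomal proteins found (70.8%) and in 20.8% of 27443 nuclear protein-coding genes. At least 2 matches were found in 14 members (42.4%) and in 12.8% of all these genes. The telo-box (AAACCCTA on either strand) was found in 2 members (6.06%), among them AT2G19730, beside 25.6% of the 168 and 5.21% of all genes. Of the 8 members called with the term for library 1, RPL3A, RPL5B, AT3G07110, AT5G27850 and RPS6B held site II and RPS18C did not. Of the members with a positive estimate, RPL10B, RPL10C and RPS6A held it and RPL23AB and AT3G53890 did not. Whether the motif goes with the difference between genotypes was not tested.

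The 300 bases are printed for 2 pairs whose ratio changed more in libraries 2 and 4 than in library 1, 5′ to 3′ on the strand of the gene, with site II in capitals. They lie at chr4:15347805-15348104 (RPS6A, minus strand), chr5:3260255-3260554 (RPS6B, minus), chr1:4887814-4888113 (RPL10A, plus) and chr1:24838790-24839089 (RPL10C, plus), all directly before the annotated gene.
RPS6A: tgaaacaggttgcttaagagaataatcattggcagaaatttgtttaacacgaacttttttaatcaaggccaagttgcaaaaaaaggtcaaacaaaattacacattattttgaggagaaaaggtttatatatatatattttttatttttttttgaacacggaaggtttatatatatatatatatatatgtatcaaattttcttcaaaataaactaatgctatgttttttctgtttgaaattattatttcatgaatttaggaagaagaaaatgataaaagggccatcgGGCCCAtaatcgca
RPS6B: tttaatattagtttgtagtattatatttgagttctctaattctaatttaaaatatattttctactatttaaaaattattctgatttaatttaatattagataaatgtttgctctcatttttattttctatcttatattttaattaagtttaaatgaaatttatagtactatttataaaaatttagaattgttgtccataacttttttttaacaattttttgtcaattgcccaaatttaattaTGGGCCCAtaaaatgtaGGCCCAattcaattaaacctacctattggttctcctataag
RPL10A: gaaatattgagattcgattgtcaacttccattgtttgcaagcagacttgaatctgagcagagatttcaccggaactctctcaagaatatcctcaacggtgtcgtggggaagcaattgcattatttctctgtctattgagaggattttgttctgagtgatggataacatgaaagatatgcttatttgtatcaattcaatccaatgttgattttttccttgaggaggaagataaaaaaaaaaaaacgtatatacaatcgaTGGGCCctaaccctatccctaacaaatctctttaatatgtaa
RPL10C: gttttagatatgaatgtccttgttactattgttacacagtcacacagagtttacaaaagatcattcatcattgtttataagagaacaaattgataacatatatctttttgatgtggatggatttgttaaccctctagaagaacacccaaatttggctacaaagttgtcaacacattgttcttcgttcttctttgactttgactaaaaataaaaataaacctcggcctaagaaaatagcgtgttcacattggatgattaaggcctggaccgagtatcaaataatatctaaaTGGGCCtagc

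RPS6A held 1 match, whose first base is 14 bases before the start, and RPS6B held 3, of which 2 overlap, at 58, 56 and 41 bases. RPL10A and RPL10C held 1 each, at 42 and 10 bases. A match is a run of letters and not evidence of binding.

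The RPL24 pair also changed in libraries 2 and 4. RPL24B was at 419, 309.3 and 305 FPKM across the wild type (libraries 1, 2 and 4) and at 320.4, 257 and 257 in *hdt1*, and RPL24A at 137, 102 and 98.4 and at 99.8, 109.7 and 106, so that the pair kept its proportions in library 1 (change of the log2 ratio 0.07) and changed by -0.36 in libraries 2 and 4. RPL24A overlaps a gene on the other strand, so reads of that stretch cannot be told apart.

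Other genes of translation were compared with the members by the same fit, in which 0 of them had an adjusted p under 0.05. The annotation search found 168 further genes whose notes give a structural ribosomal protein and name a 40S, 60S or cytosolic ribosome. The list is not complete, since the same rule met 26 of the 33 members, and it holds genes of other kinds, such as NFD3 (AT1G31817), a mitochondrial S11 protein. Of the 156 kept, 136 (87.2%) had a negative estimate, beside 58.6% of all genes. At an unadjusted p under 0.05, 37 (23.7%) were lower, beside 5.96% of all genes, and 0 were higher, beside 7.78%. The median log2 difference was -0.30, with -0.41 within library 1 and -0.26 within libraries 2 and 4. Every *hdt1* library lay below every wild-type library for 66 of them (42.3%), beside 10.9% of all genes. Among genes with a mean of at least 100 FPKM, 10.2% were lower at that p and 17.3% lay wholly below. The 3 with the smallest p were AT3G45030 of the S10p/S20e family, at 154, 166 and 167 FPKM across the wild type and 109, 93.1 and 102 in *hdt1*, AT3G13580 of the L30/L7 family (150.4, 185 and 187 against 108, 113 and 109) and AT1G25260 of the L10 family (82.0, 89.6 and 84.6 against 59.5, 56.7 and 60.3).

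The next list held the acidic stalk proteins, which recruit elongation factors to the ribosome, and the ribosomal proteins made as fusions with ubiquitin. Its median was -0.30 over the 12 of 14 genes kept, 11 of them (91.7%) negative, beside 58.6% of all genes. At an unadjusted p under 0.05, 1 gene (8.33%) was lower, beside 5.96% of all genes. That gene was AT5G47700, a P1 stalk protein, at 463, 412 and 420 FPKM across the wild type and 317, 323 and 308 in *hdt1*. It was followed by AT3G28500 of the P2 proteins (99.8, 66.0 and 63.2 against 62.8, 47.2 and 47.4 FPKM) and by UBQ5 (504, 440.1 and 409 against 409, 303 and 334). The 19 translation factors and RACK1 genes had a median of -0.14, with 13 of them (68.4%) negative, beside 58.6% of all genes. Lower at an unadjusted p under 0.05 were 2 (10.5%), beside 5.96% of all genes and 10.2% of those with a mean of at least 100 FPKM. PAB4, a poly(A)-binding protein, at 57.1, 67.3 and 65.5 FPKM across the wild type and 51.4, 39.8 and 43.8 in *hdt1*, and RACK1A, a scaffold on the small subunit, at 241, 208 and 222 against 195, 142 and 145, were lower at an unadjusted p under 0.05. LOS1, elongation factor 2, was at 381, 405 and 436 FPKM and at 383, 283 and 272, without a difference in library 1.

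Among 22 genes of nucleolar ribosome assembly the median was -0.32, with 20 (90.9%) negative, beside 58.6% of all genes. Of these 22, 8 (36.4%) were lower at an unadjusted p under 0.05, beside 5.96% of all genes. FIB1, the fibrillarin that methylates ribosomal RNA, was at 328, 357 and 363 FPKM across the wild type and 266, 196 and 199 in *hdt1*. CBF5, the pseudouridine synthase, was at 61.3, 67.7 and 73.0 against 53.0, 44.0 and 39.8, and AT5G27120, a NOP58 gene, at 56.8, 71.2 and 70.9 against 38.0, 45.3 and 47.4. In contrast to the members, the assembly genes were lower in wild-type library 1 than in libraries 2 and 4 in most cases (library 1 higher in 5 of 22). The 10 genes of TOR signalling and control of ribosome synthesis had a median of 0.00, with 5 negative and 0 at an unadjusted p under 0.05 in either direction. S6K2, a kinase of RPS6, was at 80.9, 336 and 331 FPKM across the wild type (libraries 1, 2 and 4) and at 70.4, 141 and 137 in *hdt1*, TOR at 9.10, 18.3 and 18.5 against 11.4, 10.6 and 10.5, and TAP46 at 26.1, 14.1 and 14.4 against 25.8, 19.4 and 19.2.

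Nuclear genes of the plastid ribosome, a separate ribosome of bacterial type, had a median of -0.55, and all 15 were negative, beside 58.6% of all genes. At an unadjusted p under 0.05, 2 (13.3%) were lower, beside 5.96% of all genes. PRPL4 was at 89.4, 91.5 and 95.8 FPKM across the wild type and 68.4, 40.1 and 40.3 in *hdt1*, RPS9 (AT1G74970) at 68.5, 68.2 and 68.4 against 58.3, 42.9 and 44.5, and PRPS17 at 120.8, 90.3 and 87.7 against 91.8, 51.9 and 54.5. In libraries 2 and 4 their summed level was 887 and 867 FPKM for the wild type and 513 and 538 for *hdt1*, against 1543 and 1269 in library 1 of the wild type and of *hdt1*, so the split between libraries was larger than the difference between genotypes. The photosynthesis markers given above were lower in *hdt1* libraries 2 and 4 as well, and their part in this list was not tested.

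**Figure D4:**
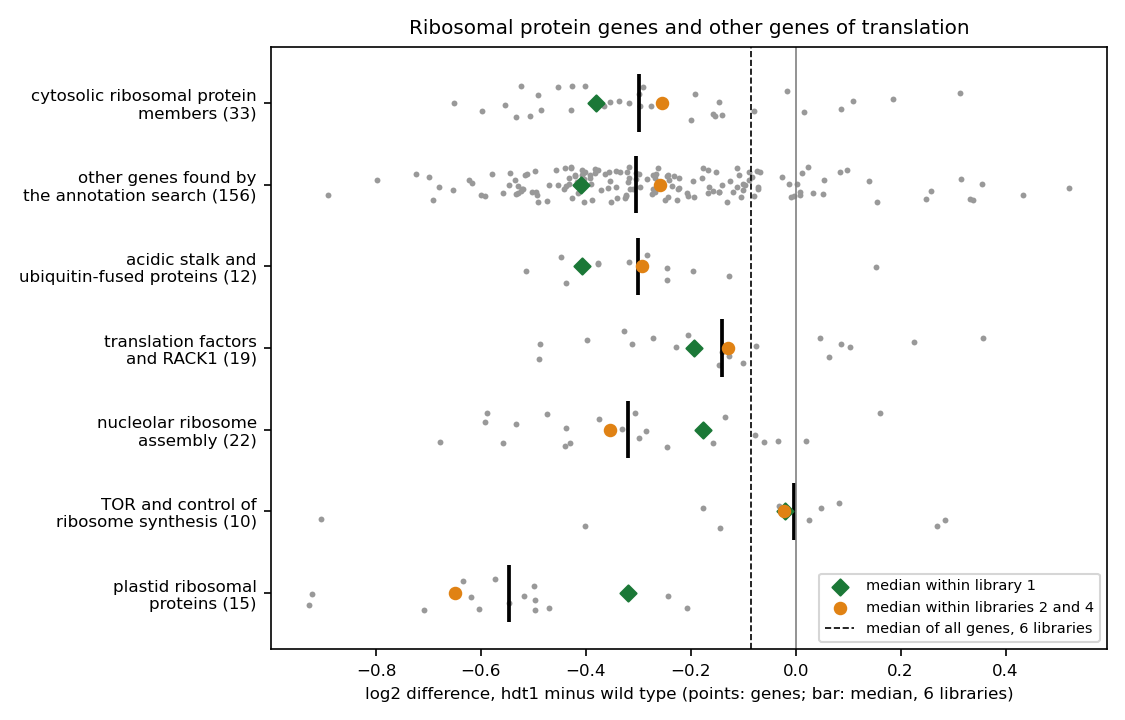
Log2 difference, *hdt1* minus wild type, of the 33 members and of the other genes of translation kept in each list (grey points, number of genes in brackets), with the median of all 6 libraries (black bar), within library 1 (green diamond) and within libraries 2 and 4 (orange circle). The dashed line is the median of all genes, -0.08, and the medians of the members and of the 156 genes found by the annotation search are both -0.30.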

How the data were processed

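Transcripts of stems were sequenced in 3 samples of each genotype. The authors deposited one FPKM value per gene and library. TopHat2 2.0.12, Bowtie2 2.2.3 and HTSeq 0.6.1 appear in their processing notes. Build and annotation are not given in the sources, nor is the strand setting of the counts. FPKM is a share, so a few abundant transcripts can move all others.

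Whole fragment counts and library totals were solved from the steps between a gene's FPKM values (relative tolerance 1e-10). This gave counts for 24033 features, 99.6% of the totals, up to a factor common to a gene's counts and length. Columns are numbered 1, 2 and 4 and labels 1 to 3, so a column is known by genotype only.

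The main test was limma 3.58.1 in R 4.3.3 with a mean-variance trend on log2(FPKM + 1). It had genotype as its single term, took genes reaching 1 FPKM in 3 or more libraries, and p-values were adjusted by Benjamini and Hochberg over 17906 genes. The study used another test, which was not run. Paralogue ratios and HDT1 were compared by exact permutation. Positions, identities and motifs came from TAIR10.1 (RefSeq), in which 32835 identifiers were found. Python 3.11.15 ran with Biopython 1.88, SciPy 1.17.1, NumPy 2.4.6, matplotlib 3.10.9 and pandas 2.3.3. Count recovery and the fit were tested on simulated data with independent libraries. With the SD of each gene capped at 0.3, the fit called 54% of genes changed 2-fold and 100% of those changed 4-fold. At the measured spread it called 17% and 68%. All members differed by less than 2-fold, a size that was not simulated, so a member without a call may still differ. Alternatives were other scalings, filters, pseudocounts and moderation, a block by library number, a term for library 1, voom on the solved counts, libraries 2 and 4 alone, and each library left out.

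Between the genotypes, libraries of the same number deviated together (correlation of deviations from the group means 0.56, 0.53 and 0.46 for numbers 1, 2 and 4). Number 2 of one genotype and 4 of the other correlated at 0.54 and 0.51 too. These values thus set library 1 apart but do not tell how 2 and 4 pair, and the block by library number assumes that pairing. The labels do not say what a number marks.

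The members and lists were chosen with earlier results of these data known. Values in every library are given for 8 of the 10 members with the smallest p, the highest and the lowest member, the 4 pairs with the largest change of ratio, HDT1 and up to 3 genes per list of translation. RPL24A, RPL24B, AT3G53890, the library values of RPS18A, the senescence genes and AT5G27700 were added after their values were seen. Marker lists are given as summed levels. Results of 2 members, both among those 10, and some upstream sequences are not reported here, and counts over the members include them.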

Additional observations from a re-analysis of the deposited data

How the results depend on the processing

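The median log2 difference of the members kept its sign under all alternatives, from -0.37 to -0.18 with 1 library left out and from -0.33 to -0.22 under the others. The counts of calls moved. With the term for library 1, 684 genes were called higher and 451 lower, 8 members were called lower and 20 were lower at an unadjusted p under 0.05 (20.8% of all genes). Of the 1466 genes with a mean of at least 100 FPKM, 112 were called lower in this fit and 479 were lower at that unadjusted p. The term was also combined with other choices, chosen after seeing the data. It on voom weights of the recovered counts gave 1095, 648, 8 and 20 (20.7% of all genes), with median-ratio scaling 761, 275, 4 and 17 (15.0%), and with quantile normalization 556, 321, 5 and 22 (21.6%). Libraries 2 and 4 alone gave 4905 genes higher and 6904 lower, 21 members called lower and 4 higher, and at an unadjusted p under 0.05 23 lower and 4 higher (40.6% and 28.7% of all genes). With 1 library left out, 0 to 1222 genes were called higher and 0 to 772 lower, 0 to 2 members were called lower, and at an unadjusted p under 0.05 members numbered 1 to 11 lower and 0 to 1 higher (1.51 to 18.0% and 3.79 to 13.8% of all genes). The calls appeared without wild-type library 1 (599 higher, 537 lower) or *hdt1* library 1 (1222 and 772). With the replicate block that pairs library numbers, 0 genes were called and 14 members were lower at an unadjusted p under 0.05 (12.6% of all genes), and it changed no other call. The cause of these shifts was not tested.

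HDT1 was called with the term for library 1 (log2 difference -2.10), also on voom weights (-2.10), with median-ratio (-2.02) or quantile scaling (-2.14), and with libraries 2 and 4 alone (-1.55). It ranged from -2.41 to -1.49 with 1 library left out.

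Signs that turned, none of them called, were those of AT2G47610 under median-ratio scaling without and with the term for library 1 (0.061 each) and with libraries 2 and 4 alone (0.030), RPL23AB under quantile normalization without and with that term (-0.00039 each), RPL24A with libraries 2 and 4 alone (0.10) and the ratio of AT1G33120 to PGY2 there (0.021). With 1 library left out, ranges that crossed 0 were -0.11 to 0.071 for AT2G47610, -0.060 to 0.36 for RPL10B, -0.11 to 0.20 for RPL23AB, -0.17 to 0.067 for RPL24A, -0.22 to 0.0019 for AT3G60770, -0.049 to 0.47 for AT3G53890, and, for ratios, -0.038 to 0.050 for AT1G33120 to PGY2 and -0.49 to 0.0055 for RPL10B to RPL10C.

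The main test called 0 genes at 3 libraries a genotype with this split between libraries, and exact tests of 3 against 3 have a smallest p of 0.1.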
